A study of Mus musculus with 10 samples.

Results

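Splenic type 1 conventional dendritic cells (cDC1s) of Zeb2 Id2 double-knockout (DKO) mice were compared with cDC1s of wild-type (WT) mice on microarrays. The comparison held the 2 arrays titled ZI DKO, as the Zeb2 Id2 DKO samples are also called here, and the 3 arrays titled as WT, 5 of the 10 arrays of the series, and these titles alone chose them. The other 5 arrays, 3 of Zeb2 KO and 2 of Nfil3 Zeb2 DKO cDC1s, entered the same model and are cited where a value in them bears on the comparison. Every sample was total RNA of cells sorted as cDC1s from digested spleen after red cell lysis, and none carried a treatment label. The alleles, the promoter of any Cre, the age and sex of the mice, the number of mice per sample and the gate of the sort are not given in the sources used here. The labels do not say that replicates came from separate animals, so each p-value rests on the spread among these samples alone, which may be technical. Levels are log2 values of RMA intensity, and a difference of 1 is 2-fold. Calls of a rise or fall were made below an adjusted p of 0.05 (limma, Benjamini-Hochberg over 19938 genes).

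cDC1s take up dead cells, present their antigens to CD8 T cells and secrete interleukin 12. Their development needs the transcription factors IRF8 and BATF3. ID2 binds E proteins and keeps them off DNA, and it is known as a factor that cDC1 development requires. ZEB2 is a zinc finger repressor that favours plasmacytoid dendritic cells and monocytes over cDC1s. The comparison asks how much of the WT cDC1 programme is found in cDC1s labelled as lacking both factors.

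Id2 was far below WT in both Zeb2 Id2 DKO samples, with 20.8% of genes ranked below its mean there. Its levels were 10.15, 10.32 and 10.43 in WT and 5.01 and 4.98 in Zeb2 Id2 DKO, a 39.6-fold fall (log2 -5.31, 95% confidence interval -5.58 to -5.04, adjusted p = 6.58e-09). On the log2(intensity + 32) scale, which compresses dim values, the difference was -4.34. Zeb2 was dim in every array, at 5.93 to 6.30 in WT and at 6.78 and 6.82 in Zeb2 Id2 DKO. Its level was not lower in the libraries labelled as lacking it (log2 fold change 0.72, adjusted p = 0.184), and whether its probes lie in the deleted part is not given, so it checks nothing about the Zeb2 deletion. The sorted cells carried the markers of their label. The 12 cDC1 markers lay between percentiles 92.7 and 99.8 of all genes in WT and between 89.2 and 99.9 in Zeb2 Id2 DKO. The 5 cDC2 markers (Sirpa, Cd209a, Clec4a4, Esam and Itgam) reached percentile 63.4 at most in either group, and the 3 NK cell markers 25.3 in WT and 18.9 in Zeb2 Id2 DKO. Other markers reached higher, up to 81.3 in WT and 83.3 in Zeb2 Id2 DKO for the 5 plasmacytoid markers, 70.3 and 83.3 for the 3 monocyte markers and 80.2 and 56.2 for the 2 B cell markers. The 5 neutrophil markers lay between 56.1 and 79.9 in WT and between 90.0 and 98.7 in Zeb2 Id2 DKO, in the range of the cDC1 markers.

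Over all genes the 2 genotypes stayed close. Array correlations were 0.990 to 0.992 between WT and Zeb2 Id2 DKO, against 0.994 to 0.997 among WT arrays and 0.997 between the Zeb2 Id2 DKO arrays. Between a WT and a Zeb2 Id2 DKO array 182 to 219 genes lay at least 2-fold apart, against 13 to 99 between WT arrays. The test called 286 genes (1.43%): 175 rose (0.878%) and 111 fell (0.557%), by at least 2-fold in 69 and 35 of them. For 97.2% of all genes the 95% confidence interval of the difference lay within 2-fold of WT, and for 88.4% it lay within 1.5-fold. The median absolute log2 difference was 0.08. The other contrasts of the same model share arrays with this one. Zeb2 Id2 DKO differed from Zeb2 KO in 99 genes (0.497%) and from Nfil3 Zeb2 DKO in 158 (0.792%). Zeb2 KO differed from WT in 4 (0.0201%) and Nfil3 Zeb2 DKO from WT in 1 (0.00502%). Zeb2 KO arrays were uneven: replicates 1 and 2 lay 2-fold apart in 29 genes, but replicate 3 differed from them in 251 and 280. Replicates 1 and 2 lay 66 to 97 genes from Zeb2 Id2 DKO arrays and 50 to 151 from WT arrays. Replicate 3 lay 318 and 326 genes from Zeb2 Id2 DKO. With such spread, few calls do not show that Zeb2 KO was like WT.

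The most abundant transcripts of the cDC1 samples were chosen from the 5 arrays outside the comparison, as the 500 genes with the highest mean in Zeb2 KO and Nfil3 Zeb2 DKO. Of these, 7 were called (1.4%, against 1.43% of all genes), 3 higher and 4 lower. By their interval 96.8% lay within 2-fold of WT, against 97.2% of all genes. The 4 that fell were Dnase1l3 and Cadm1, described below, Rac2, a GTPase gene (11.02, 11.02 and 10.88 in WT, 10.33 and 10.57 in ZI DKO, log2 fold change -0.52, adjusted p = 0.0373), and the selenocysteine elongation factor gene Eefsec (log2 fold change -0.38, adjusted p = 0.0466). The 3 that rose were Ngp, the membrane protein gene Plp2 (10.89, 10.94 and 10.89 in WT, 11.59 and 11.41 in ZI DKO, log2 fold change 0.59, adjusted p = 0.033) and Myadm (0.54, adjusted p = 0.0263). Ngp, a neutrophil granule gene, was higher in the Zeb2 KO arrays that helped choose the 500 than in WT, as given below. Its place among the 500 therefore says little about WT cDC1s. In none of the 7 called genes did the arrays of the genotypes overlap (31.4% of all genes), but a call favours such separation, so this is no result of its own. Rac2, Eefsec, Plp2 and Myadm each lost their call with WT replicate 2, WT replicate 3 or either ZI DKO array left out, among others (adjusted p as high as 0.399, 0.43, 0.339 and 0.241). Among the 200 highest genes limma called 0, and the interval of 196 lay within 2-fold.

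**Figure D1:**
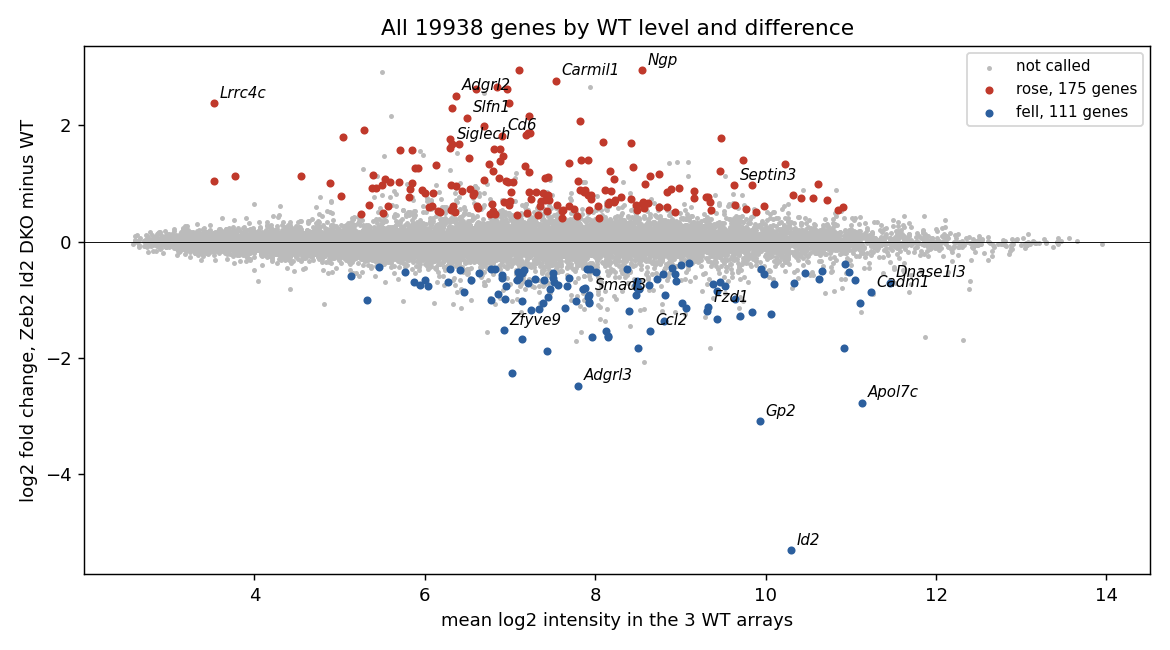
Each point is 1 of 19938 genes, placed by its mean log2 intensity in the 3 WT arrays (horizontal) and its log2 fold change of ZI DKO from WT (vertical), with the 175 rises in red, the 111 falls in blue and uncalled genes in grey. Id2, at -5.31, lies apart from all others.

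The cDC1 programme was described with 3 lists, of developmental regulators, surface receptors, and intracellular or other signature genes, of which 78 of 82 genes were measured. Of the 78, 7 were called (8.97%, against 1.43% of all genes), 3 higher and 4 lower, the targeted Id2 included. Their median log2 fold change was 0.02, against -0.01 over all genes, but rises and falls cancel in such a median. The median absolute log2 fold change was 0.17, and 0.37 for the surface receptors, against 0.08 over all genes. For 45 of the 78 the arrays of the groups did not overlap, against 31.4% of all genes. The interval lay within 2-fold of WT for 64 of the 78 (82.1%, against 97.2% of all genes). It lay within 1.5-fold for 45 (57.7%, against 88.4% of all genes and 87.6% of the 500 highest). Without the targeted Id2 and Zeb2, the mean level of the lists lay 0.01 and 0.03 above the WT mean in ZI DKO replicates 1 and 2, while WT arrays lay between 0.02 below and 0.02 above it. With both included it lay 0.05 and 0.03 below. The members with positive values numbered 42 and those with negative values 36.

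Of the 29 measured regulators, the targeted genes included, 2 were called (6.9%, against 1.43% of all genes). An unadjusted p under 0.05 was found for 8, 7 higher and 1 lower, against 2028 of all 19938 genes. For 17 the arrays did not overlap, against 31.4% of all genes. The interval of 17 lay within 1.5-fold of WT (58.6%, against 88.4% of all genes). Irf8 and Batf3, which cDC1 development needs, were among those within 1.5-fold. Irf8 stood at 12.53, 12.55 and 12.45 in WT and at 12.59 and 12.63 in ZI DKO (log2 fold change 0.10, interval -0.08 to 0.28), slightly above WT with no overlap. Batf3 stood at 10.04, 10.23 and 10.41 against 10.17 and 10.18, inside the WT range (-0.05, interval -0.34 to 0.23). Nfil3, which acts upstream of Id2 in early precursors, stood at 9.98, 10.77 and 10.68 against 10.21 and 10.28, also inside the WT range. The myeloid factor Spi1 (-0.07), the E protein antagonists Id1 (-0.21) and Id3 (-0.35), Mycl (0.12), which supports cDC1 metabolism, and Relb (-0.20) all had intervals within 2-fold of WT.

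The E proteins, which ID2 restrains, did not differ detectably in their own transcripts. Tcf3 stood at 8.38, 8.51 and 8.37 in WT and at 8.47 and 8.41 in Zeb2 Id2 DKO. Tcf4, the E protein that sustains plasmacytoid dendritic cells, stood at 8.68, 8.76 and 8.52 against 8.69 and 8.59. Tcf12 stood at 9.09, 9.17 and 9.08 against 9.28 and 9.22, where the groups did not overlap, though the difference of 0.14 did not pass (interval -0.03 to 0.30, adjusted p = 0.641). The intervals of all 3 excluded a change of 1.5-fold.

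Cebpa, a myeloid factor expressed in dendritic cell precursors, was the regulator that rose. It stood at 8.13, 7.84 and 7.76 in WT and at 8.59 and 8.82 in Zeb2 Id2 DKO, a 1.73-fold rise with no overlap (log2 0.79, adjusted p = 0.0128). In the arrays labelled Zeb2 KO it stood at 8.48, 8.53 and 8.31, and the difference of Zeb2 Id2 DKO from Zeb2 KO was 0.26 (adjusted p = 0.706). Without WT replicate 2 or 3 or either ZI DKO array the call was lost (adjusted p as high as 0.18). Of the uncalled regulators, Notch2, a receptor for terminal dendritic cell differentiation, stood at 11.66, 11.68 and 11.56 against 12.09 and 12.05 (0.44, adjusted p = 0.0707). Zbtb46, which marks conventional dendritic cells, varied within WT (8.19, 6.42 and 7.79) and stood at 8.54 and 8.52 in Zeb2 Id2 DKO (adjusted p = 0.302), so its interval of 0.22 to 1.91 shows little about it. Spib varied likewise in WT (7.24, 5.84 and 5.44 against 6.10 and 5.92), and the WT array with the highest Spib was also the one with the highest B cell genes.

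**Figure D2:**
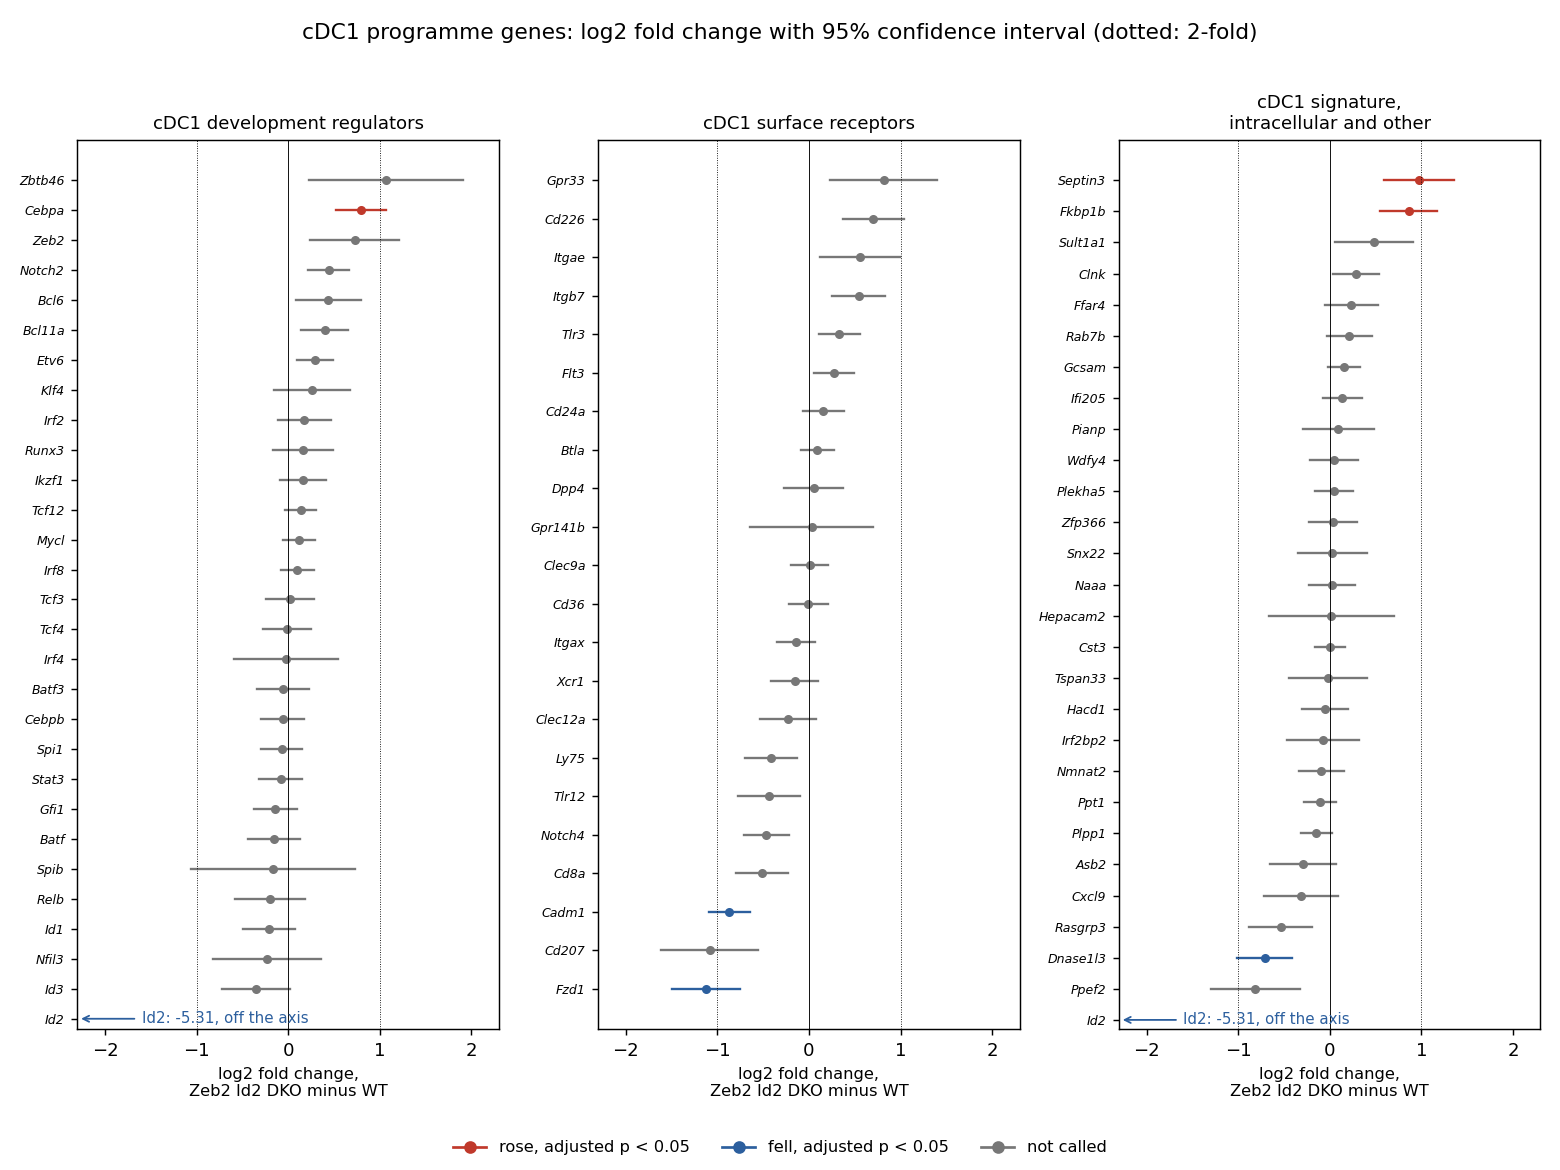
Log2 fold change of ZI DKO from WT (dots) with its 95% confidence interval (lines) for the 78 measured genes of the 3 cDC1 lists, red where the gene rose, blue where it fell and grey where it was not called, with dotted lines at 2-fold. Id2, a member of 2 lists, lies off the axis at -5.31, and most other intervals stay between the dotted lines.

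Of the 22 measured surface receptors 2 fell (9.09%, against 0.557% of all genes) and none rose at the threshold. An unadjusted p under 0.05 was found for 13, 6 higher and 7 lower, against 2028 of all 19938 genes. The chemokine receptor Xcr1 stood at 11.64, 11.48 and 11.61 in WT and at 11.36 and 11.47 in ZI DKO (log2 fold change -0.16, interval -0.41 to 0.10), slightly below WT with no overlap. Clec9a, the receptor for actin of dead cells, stood at 11.92, 11.86 and 11.95 against 11.87 and 11.96, inside the WT range. Btla (0.09), Dpp4 (0.05), Cd24a (0.16), Cd36 (-0.01) and Itgax (-0.14) had intervals within 1.5-fold of WT.

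Cadm1, an adhesion molecule by which cDC1s bind CRTAM on lymphocytes, was the receptor with the most stable fall. It stood at 11.26, 11.21 and 11.25 in WT and at 10.45 and 10.28 in Zeb2 Id2 DKO (1.83-fold, log2 -0.87, interval -1.10 to -0.65, adjusted p = 0.00225). Both double-knockout arrays lay below all WT arrays, and also below Zeb2 KO (11.00, 10.89 and 11.19; difference -0.66, adjusted p = 0.0187) and Nfil3 Zeb2 DKO (11.04 and 11.14; difference -0.73, adjusted p = 0.0146), comparisons that share the Zeb2 Id2 DKO arrays. With any array left out it was still called (adjusted p as high as 0.0493). The Wnt receptor Fzd1 stood at 8.98, 9.54 and 9.47 in WT and at 8.18 and 8.23 in Zeb2 Id2 DKO, with no overlap (2.18-fold, log2 -1.12, adjusted p = 0.00937). Leaving out either ZI DKO array ended that call (adjusted p as high as 0.0987). Nfil3 Zeb2 DKO had intermediate Fzd1 levels of 8.72 and 8.93, 0.62 above Zeb2 Id2 DKO (adjusted p = 0.182).

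Several receptors lay apart from WT without passing the test. The langerin gene Cd207, an endocytic lectin, stood at 8.04 ± 0.04 (SD, n = 3) in WT against 7.23 and 6.67 (log2 fold change -1.09, adjusted p = 0.0602), and the adhesion receptor Cd226 at 7.14, 6.88 and 7.16 against 7.63 and 7.90 (0.70, adjusted p = 0.0524). Cd8a, the coreceptor chain that marks these cells in spleen, stood at 10.56, 10.86 and 10.89 against 10.12 and 10.40 (-0.52, adjusted p = 0.0936). Notch4 (-0.46, adjusted p = 0.0825), the endocytic receptor Ly75 (-0.41, adjusted p = 0.208) and the profilin sensor Tlr12 (-0.44, adjusted p = 0.288) lay on the low side. The integrin chains Itgae (0.56, adjusted p = 0.291) and Itgb7 (0.54, adjusted p = 0.0856), which pair with each other, and Gpr33 (0.81, adjusted p = 0.238) lay on the high side. Itgae was the exception in separation, as 10.52 in WT replicate 1 exceeded 10.43 in ZI DKO replicate 2.

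Among the 28 intracellular and other signature genes, 2 rose and 2 fell (14.3% called, against 1.43% of all genes), Id2 among the falls. Septin3, of the septin cytoskeleton family, stood at 9.59, 9.66 and 9.64 in WT and at 10.59 and 10.62 in Zeb2 Id2 DKO (1.96-fold, log2 0.97, adjusted p = 0.0222). Fkbp1b, a calcium channel regulator, stood at 7.01 ± 0.01 (SD, n = 3) in WT against 7.87 ± 0.18 (SD, n = 2) (1.82-fold, log2 0.86, adjusted p = 0.0142). Dnase1l3, a secreted nuclease that digests DNA of dead cells, stood at 11.38, 11.52 and 11.50 against 10.74 and 10.77 (1.64-fold, log2 -0.71, adjusted p = 0.0313). In each of the 3 genes the groups stood apart by more than either group's range. Without WT replicate 2 or 3 or either ZI DKO array all 3 calls were lost (adjusted p as high as 0.205 for Septin3, 0.182 for Fkbp1b and 0.255 for Dnase1l3). Septin3 and Dnase1l3 were also lost without WT replicate 1, and Dnase1l3 without either Nfil3 Zeb2 DKO array. With log2(intensity + 32) Septin3 and Dnase1l3 did not pass.

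By interval 18 of these 28 signature genes lay within 1.5-fold of WT (64.3%, against 88.4% of all genes). For 14 of the 28 the arrays of the groups did not overlap, against 31.4% of all genes. Several members, chosen after their values were seen, lay close to WT. Cst3, the protease inhibitor cystatin C, stood at 13.48, 13.44 and 13.50 in WT and at 13.48 and 13.47 in Zeb2 Id2 DKO. Wdfy4, needed for cross-presentation, stood at 12.97, 12.82 and 12.87 against 12.95 and 12.93, and the lysosomal hydrolase gene Naaa at 12.99, 12.90 and 12.93 against 12.97 and 12.96. In these 3 the double-knockout values fell inside the WT range. Snx22 (0.03), Tspan33 (-0.02), Plekha5 (0.04) and Zfp366 (0.04) likewise differed by little, and the phosphatase gene Ppef2 (-0.81, adjusted p = 0.128) and the Ras activator Rasgrp3 (-0.54, adjusted p = 0.168) lay lower without passing.

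**Figure D3:**
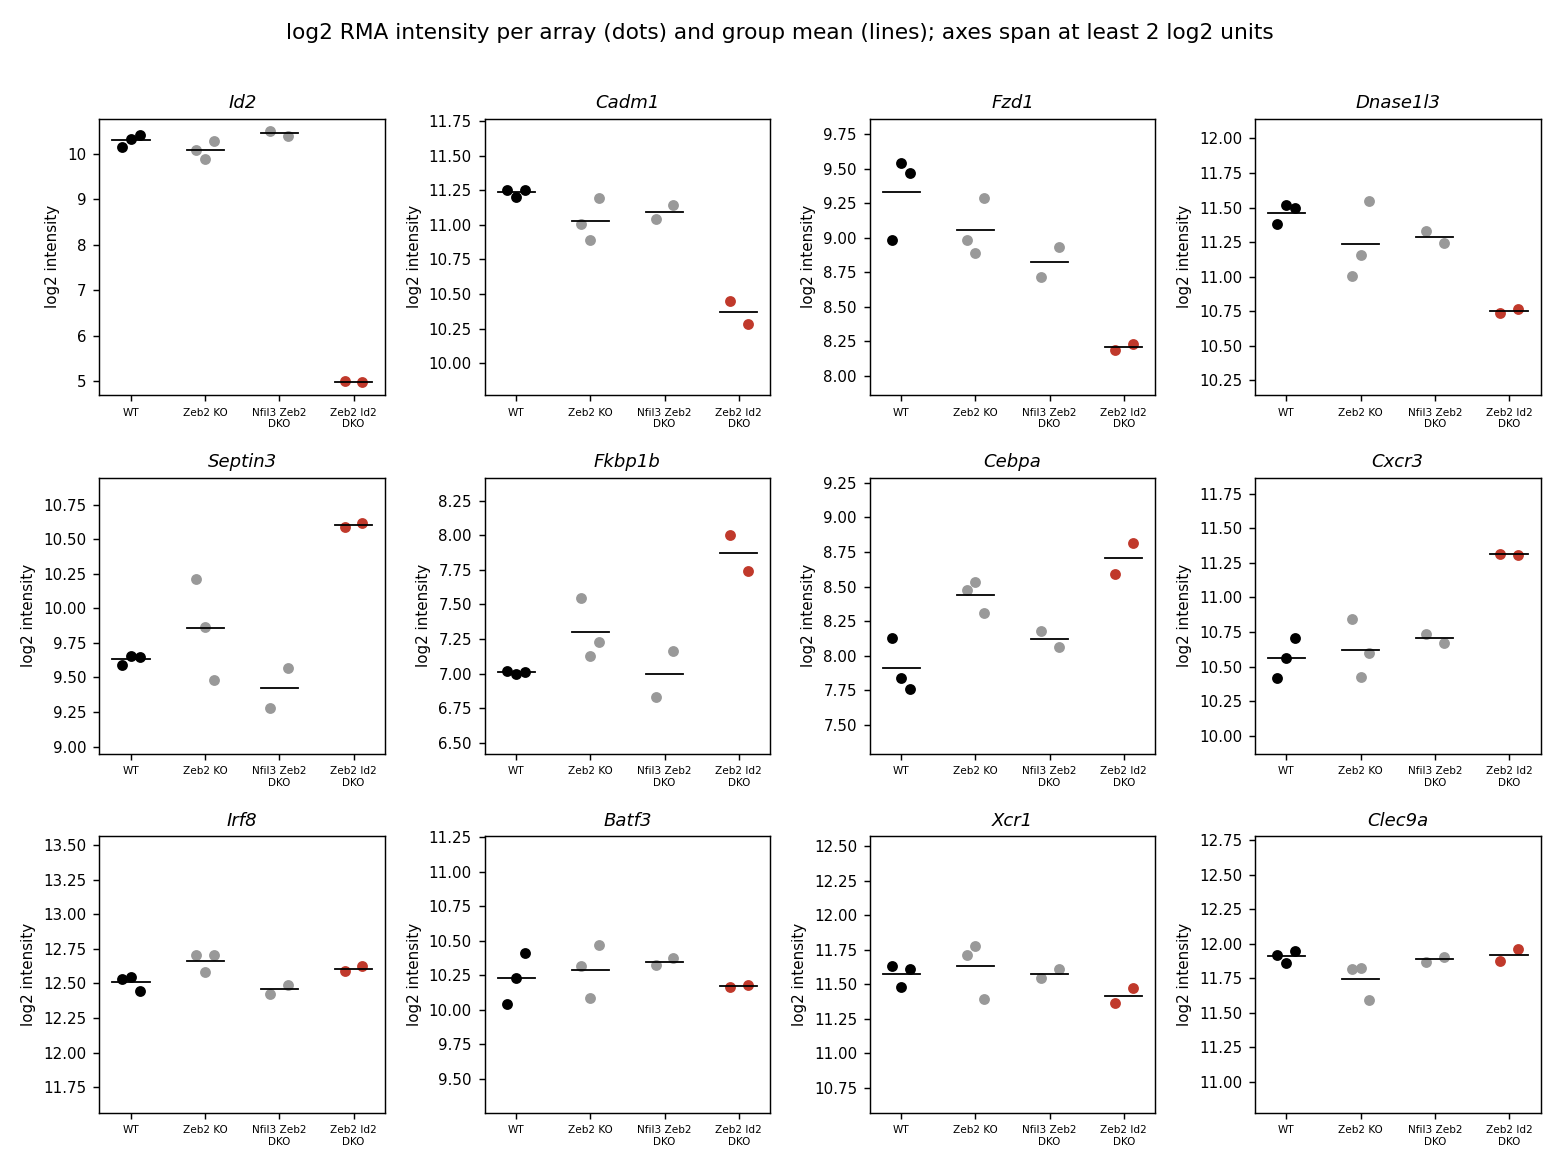
Log2 intensity of 12 genes in each of the 10 arrays (dots) by genotype, WT in black, Zeb2 Id2 DKO in red and the other genotypes in grey, with group means as lines. Cadm1, Fzd1 and Dnase1l3 are lowest and Septin3, Fkbp1b and Cxcr3 highest in the Zeb2 Id2 DKO arrays, whereas Irf8, Batf3, Xcr1 and Clec9a lie within a narrow band in all genotypes.

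The number of cDC1 genes called depended on single arrays more than their levels did. Id2 and Cadm1 were called with any 1 array left out. The 7 calls became 2 without ZI DKO replicate 1 or 2, and 3 without WT replicate 2 or 3. They became 19 without Zeb2 KO replicate 3, an array of neither group, whose array weight was the lowest of the 10 (0.19). The calls of that setting beyond the 7 were the rises Zeb2, Bcl6, Notch2, Tlr3, Gpr33, Cd226 and Itgb7 and the falls Cd8a, Cd207, Notch4, Rasgrp3 and Ppef2. Over all alternatives, 57 to 67 of the cDC1 members lay within 2-fold of WT.

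The machinery of cross-presentation, by which dendritic cells load ingested antigen onto MHC class I, had all its intervals within 2-fold of WT. Limma called 0 of 30 measured members, where 1.43% of all genes were called, so the count itself shows little. An unadjusted p under 0.05 was found for 1, against 2028 of all 19938 genes. The interval of every one of the 30 lay within 2-fold, against 97.2% of all genes, and of 28 within 1.5-fold (93.3%, against 88.4%). These shares lie near those of all genes, so they set the list little apart. The peptide transporter gene Tap1 stood at 12.30, 12.19 and 12.27 in WT and at 12.37 and 12.41 in Zeb2 Id2 DKO. The immunoproteasome gene Psmb8 stood at 11.65, 11.51 and 11.80 against 11.67 and 11.72, and B2m, the light chain of class I, at 12.62, 12.65 and 12.58 against 12.54 and 12.71. Only Tap1 of these lay above its WT range, by a difference of 0.13 that did not pass (adjusted p = 0.741). The member with the smallest p was Rab27a, a GTPase of phagosome transport (0.42, adjusted p = 0.0714), which was called without Zeb2 KO replicate 3.

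Of 14 measured MHC class II presentation genes limma called 0, against 1.43% of all genes. An unadjusted p under 0.05 was found for 2, against 2028 of all 19938 genes. The interval lay within 2-fold of WT for 12 (85.7%, against 97.2% of all genes) and within 1.5-fold for 10 (71.4%, against 88.4%). H2-Ab1 stood at 13.44, 13.42 and 13.40 in WT and at 13.41 and 13.43 in Zeb2 Id2 DKO, Cd74, the invariant chain, at 13.13, 13.19 and 13.11 against 13.09 and 13.21, and Ciita, the class II transactivator, at 10.52, 10.53 and 10.53 against 10.56 and 10.50. These groups overlapped. Lower values were found for H2-Eb2, a second beta chain gene (8.07, 8.35 and 8.51 against 7.60 and 7.34, log2 fold change -0.85, adjusted p = 0.127), and the endosomal protease gene Lgmn (-0.55, adjusted p = 0.374). The list held 2 falls with the 5 arrays alone, with array weights and without Zeb2 KO replicate 3.

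Of 22 cytokine and chemokine genes of dendritic cells 1 fell (4.55%, against 0.557% of all genes) and none rose, with a median log2 fold change of -0.20. Below an unadjusted p of 0.05 were 5, all lower, against 2028 of all 19938 genes. Il12b, the shared subunit of interleukins 12 and 23, stood at 11.05, 11.01 and 11.25 in WT and at 10.08 and 10.01 in ZI DKO (log2 fold change -1.06, adjusted p = 0.0112). In Zeb2 KO its level was like that in Zeb2 Id2 DKO (9.83, 10.01 and 10.20, difference 0.03, adjusted p = 0.987), and Nfil3 Zeb2 DKO was higher (11.30 and 10.73, difference -0.97, adjusted p = 0.0385). Without WT replicate 3 or either ZI DKO array the Il12b call was lost (adjusted p as high as 0.132). Il12a, its partner in interleukin 12, was dim (5.31, 5.33 and 5.21 against 5.24 and 5.15). Il1b (11.12, 11.34 and 11.12 against 10.98 and 11.00) and the interferon-induced chemokine gene Cxcl9 (10.68, 10.74 and 11.07 against 10.31 and 10.72) did not pass.

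Of 22 chemokine and growth factor receptors 1 rose (4.55%, against 0.878% of all genes) and none fell. Without adjustment, 11 had a p under 0.05, 6 higher and 5 lower, against 2028 of all 19938 genes. Cxcr3, the receptor for Cxcl9 and Cxcl10, stood at 10.42, 10.56 and 10.70 in WT and at 11.32 and 11.31 in Zeb2 Id2 DKO (1.68-fold, log2 0.75, adjusted p = 0.0157). The call ended without WT replicate 2 or either ZI DKO array (adjusted p as high as 0.154). Flt3, the growth factor receptor of all dendritic cells, stood at 11.58, 11.55 and 11.52 against 11.85 and 11.79 (0.27, adjusted p = 0.319), Kit at 11.69, 11.63 and 11.55 against 11.92 and 11.84, and Ifngr1 at 12.05, 12.02 and 11.98 against 11.91 and 11.90. Each of these 3 stood apart from WT by a small step that did not pass. Ccr2, a receptor of monocytes and precursors, stood at 8.17, 7.48 and 7.90 against 8.89 and 8.85 (1.02, adjusted p = 0.191).

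Genes of dendritic cell maturation lay mostly below WT. Of 25 measured members 22 had negative values, against 10640 of all 19938 genes. In the test 2 fell (8%, against 0.557% of all genes) and none rose, and the median log2 fold change was -0.36. By unadjusted p under 0.05 there were 12, all lower, against 2028 of all 19938 genes. Apol7c, of the apolipoprotein L family, stood at 11.01, 11.30 and 11.10 in WT and at 7.75 and 8.98 in Zeb2 Id2 DKO, a 6.83-fold fall with no overlap (adjusted p = 0.0016). It also lay below Zeb2 KO (10.02, 10.34 and 10.74; difference -2.00, adjusted p = 0.0161) and Nfil3 Zeb2 DKO (11.19 and 11.11; -2.78, adjusted p = 0.00362), and no array left out ended its call. The costimulatory ligand Cd80 stood at 10.35, 10.59 and 10.44 against 9.87 and 9.97 (-0.54, adjusted p = 0.0257), a call lost without WT replicate 2 or 3 or either ZI DKO array (adjusted p as high as 0.269). Cd86, the other B7 ligand, did not share this difference in level (12.03, 11.90 and 11.93 against 12.04 and 11.98).

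The remaining maturation genes did not pass at the threshold. The migration receptor Ccr7 stood at 11.34, 11.18 and 11.28 in WT and at 10.33 and 10.40 in Zeb2 Id2 DKO (-0.90, adjusted p = 0.0685), Tnfrsf4, the OX40 gene, at 8.82, 8.72 and 8.81 against 7.61 and 7.57 (-1.19, adjusted p = 0.0726), and Nudt17 at 8.55, 8.39 and 8.64 against 7.42 and 7.28 (-1.18, adjusted p = 0.135). In all 3 the groups stood apart by more than either group's range. The number of falls in the list was 7 without Zeb2 KO replicate 3. Relative to the WT mean the list lay 0.63, 0.45 and 0.04 lower in Zeb2 KO, 0.07 higher and 0.26 lower in Nfil3 Zeb2 DKO, and 0.60 and 0.52 lower in Zeb2 Id2 DKO.

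**Figure D4:**
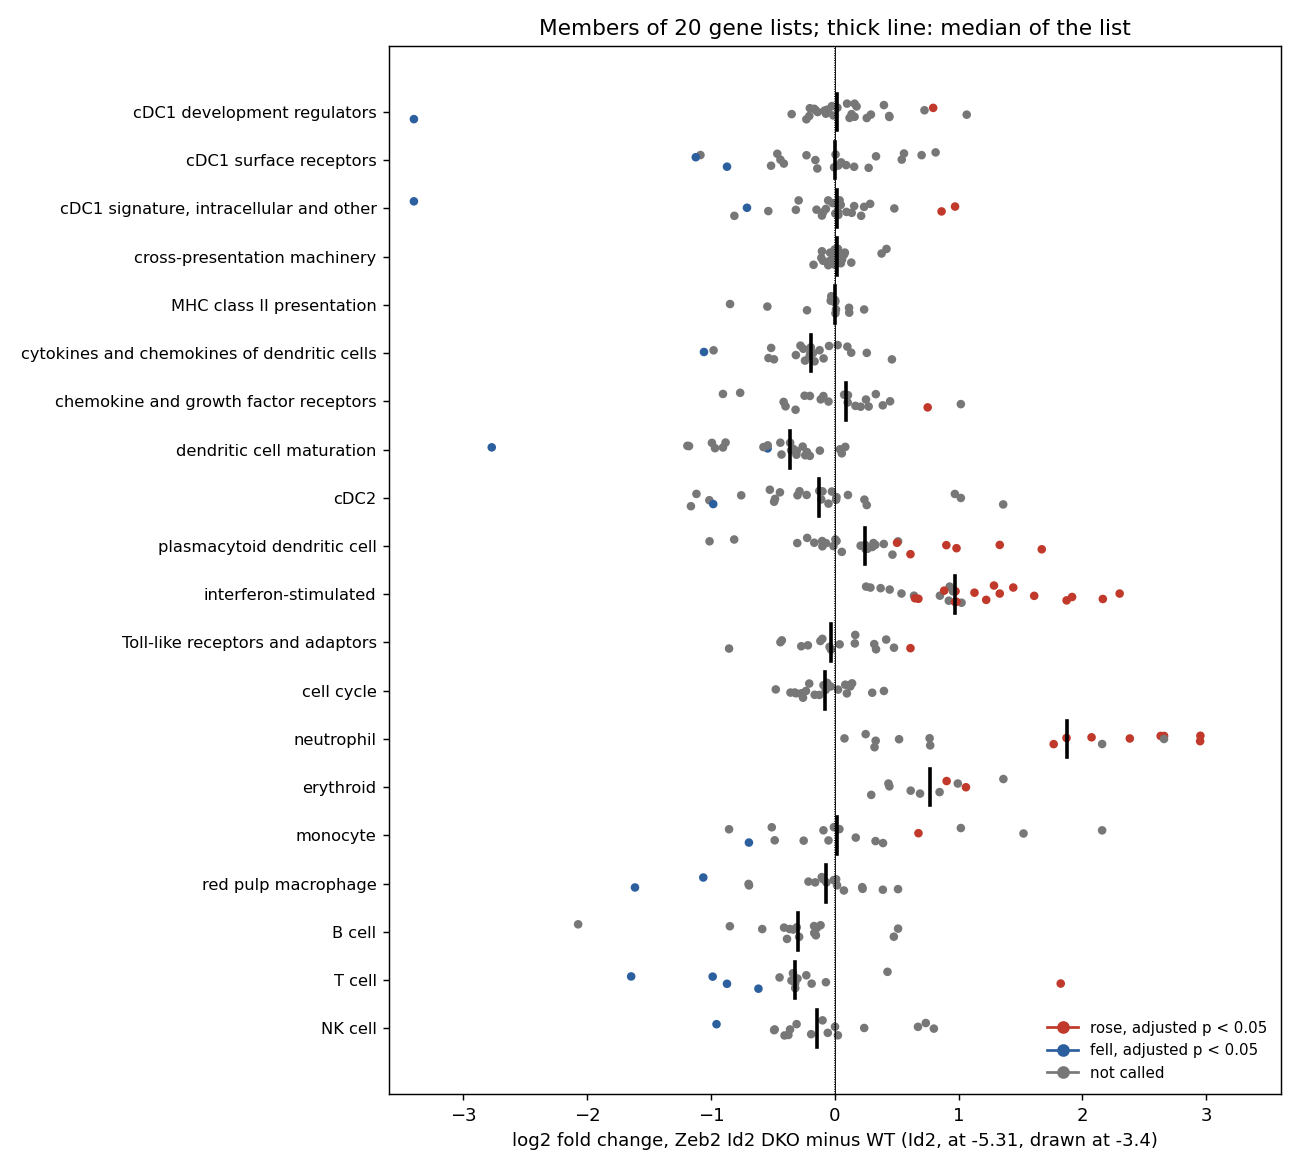
Log2 fold change of ZI DKO from WT of the measured members of 20 gene lists (dots; red, rose; blue, fell; grey, not called), with each list's median as a thick line. The 3 cDC1 lists and both antigen presentation lists centre on 0, whereas the interferon-stimulated, neutrophil and erythroid lists lie on the high side and the maturation list on the low side.

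Carmil1, Adgrl2 and Lrrc4c were among the largest rises outside the neutrophil and interferon lists. Carmil1, a regulator of actin capping, stood at 7.40, 7.60 and 7.60 in WT and at 10.21 and 10.39 in Zeb2 Id2 DKO (6.80-fold, adjusted p = 1.84e-05). Adgrl2, a latrophilin adhesion receptor, stood at 6.62, 6.21 and 6.27 against 8.91 and 8.84, and the netrin-G ligand gene Lrrc4c at 3.54, 3.53 and 3.50 against 6.13 and 5.68. In all 3 the groups lay over 2 log2 units apart. Zeb2 KO and Nfil3 Zeb2 DKO did not reach these levels for Carmil1 (6.85, 7.17 and 6.59; 7.58 and 7.34), Adgrl2 (6.81, 6.79 and 6.80; 6.14 and 6.09) and Lrrc4c (3.31, 3.52 and 3.53; 3.76 and 3.56), and each differed from Zeb2 Id2 DKO at an adjusted p of at most 6.61e-05.

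Other rises combined signalling and surface genes. Slfn1, a Schlafen family gene, stood at 6.57, 6.58 and 6.34 in WT and at 8.43 and 8.84 in Zeb2 Id2 DKO (4.39-fold, adjusted p = 3.35e-05), and its relative Slfn5 at 9.72, 9.37 and 9.34 against 11.17 and 11.34 (3.42-fold, adjusted p = 0.0174). The death-associated kinase gene Dapk2 stood at 6.13, 7.34 and 6.60 against 8.82 and 8.55 (3.99-fold, adjusted p = 0.00568), and Ank1, the ankyrin of red cells, at 7.28, 7.28 and 7.00 against 9.23 and 8.82 (3.58-fold, adjusted p = 0.000299). Lgals9, which encodes galectin-9, stood at 8.60, 8.40 and 8.26 against 9.91 and 10.32 (3.24-fold, adjusted p = 0.0018). All of these groups stood apart, which was a condition of the choice of the largest rises and is no result of its own. For Lgals9 the Zeb2 KO arrays lay between WT and Zeb2 Id2 DKO at 9.63, 9.14 and 9.03. Against Zeb2 KO, Slfn1 (1.88, adjusted p = 0.00012), Dapk2 (2.13, adjusted p = 0.00725) and Ank1 (1.48, adjusted p = 0.00251) were higher too, and Lgals9 (0.85, adjusted p = 0.113) and Slfn5 (1.46, adjusted p = 0.0853) did not pass.

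The growth factor receptor gene Fgfr1 stood at 8.56, 7.83 and 7.89 in WT and at 10.19 and 9.41 in Zeb2 Id2 DKO (3.26-fold, adjusted p = 0.0184), and the protease inhibitor gene Stfa2 at 4.63, 5.47 and 5.00 against 7.19 and 6.47 (3.46-fold, adjusted p = 0.0142). Plet1, a surface glycoprotein gene, differed between the ZI DKO replicates (9.99 and 8.45, against 6.67, 6.50 and 6.63 in WT). The Slfn5 call ended without WT replicate 2 or 3 or either ZI DKO array (adjusted p as high as 0.194), Dapk2 without either ZI DKO array (0.0767), Fgfr1 without WT replicate 2 or 3 or ZI DKO replicate 1 (0.221) and Stfa2 without WT replicate 3 or ZI DKO replicate 1 (0.173). Slfn5 and Fgfr1 did not pass with log2(intensity + 32). Slfn, Stfa, Ifit and Oas genes belong to families of similar members, whose cross-hybridisation was not tested.

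Among the largest falls, some genes also had lower values in Zeb2 KO and Nfil3 Zeb2 DKO than in WT. Adgrl3, a latrophilin like Adgrl2 but lower in place of higher, stood at 7.90, 8.15 and 7.35 in WT, 6.56, 6.53 and 6.48 in Zeb2 KO, 6.57 and 6.85 in Nfil3 Zeb2 DKO and 5.31 and 5.33 in Zeb2 Id2 DKO (5.58-fold from WT, adjusted p = 0.000147). Zfyve9, an anchor protein of TGF-beta receptor signalling, stood at 6.76, 7.08 and 6.93 in WT, 6.04, 6.08 and 5.97 in Zeb2 KO, 6.34 and 6.54 in Nfil3 Zeb2 DKO and 5.38 and 5.43 in Zeb2 Id2 DKO (2.87-fold, adjusted p = 9.86e-05). Adam22, a neuronal-type ADAM without protease activity, followed the same order (8.69, 8.55 and 8.28; 7.83, 7.51 and 7.56; 8.02 and 8.08; 6.78 and 6.57). In these 3 genes every Zeb2 Id2 DKO array lay below every other array. The difference from Zeb2 KO was -1.20 for Adgrl3 (adjusted p = 0.0193), -0.63 for Zfyve9 (0.0295) and -0.96 for Adam22 (0.0124).

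For other falls Zeb2 KO lay closer to WT. Frmd4b, a FERM domain scaffold gene, stood at 9.80, 9.99 and 9.75 in WT, 9.75, 9.68 and 9.53 in Zeb2 KO, 9.70 in both Nfil3 Zeb2 DKO arrays and 8.57 and 8.70 in Zeb2 Id2 DKO (2.32-fold from WT, adjusted p = 0.000299). Ocstamp, a gene of osteoclast fusion, stood at 9.25, 9.66 and 9.39 in WT against 7.94 and 8.26 (2.52-fold, adjusted p = 0.0018), and Cpne8, a copine, at 6.81, 7.15 and 7.47 against 5.39 and 5.53 (3.20-fold, adjusted p = 0.00157). Each differed from Zeb2 KO as well (Frmd4b -1.02, adjusted p = 0.00137; Ocstamp -1.17, 0.00779; Cpne8 -1.40, 0.00779). Arhgap42 stood at 9.59, 9.70 and 9.80 in WT and at 8.51 and 8.32 in Zeb2 Id2 DKO (2.43-fold, adjusted p = 0.000289).

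The sialyltransferase gene St6gal1 stood at 8.92, 8.80 and 8.72 against 7.32 and 7.57 (2.57-fold, adjusted p = 0.000504), and the ion cotransporter gene Slc12a2 at 7.30, 7.30 and 7.40 against 6.08 and 6.27 (2.23-fold, adjusted p = 0.000299). Ccl2, a chemokine for monocytes, stood at 8.46, 8.89 and 8.56 against 6.86 and 7.35 (2.90-fold, adjusted p = 0.00113), and the costimulatory receptor gene Icos at 7.89, 7.95 and 8.06 against 6.14 and 6.50 (3.13-fold, adjusted p = 0.0018). None of these groups overlapped, which was a condition of the choice of the largest falls and is no result of its own. The calls of Adgrl3, Zfyve9, Adam22, Frmd4b, Ocstamp, Cpne8, Arhgap42, St6gal1, Slc12a2, Ccl2 and Icos held with any array left out, with adjusted p of at most 0.0361.

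For further falls the call, though not the separation of the groups, was lost when single arrays were left out. Gp2, a receptor for bacterial fimbriae, stood at 9.55, 10.41 and 9.84 in WT and at 6.78 and 6.91 in Zeb2 Id2 DKO (8.51-fold, adjusted p = 0.033), and the glutathione synthesis gene Gclc at 10.84, 10.88 and 11.04 against 9.03 and 9.16 (3.55-fold, adjusted p = 0.0308). Zeb2 KO arrays were spread for both, from 7.37 to 10.12 for Gp2 and from 9.35 to 10.95 for Gclc. H2-M2, a class I gene outside the classical loci, stood at 7.75, 8.56 and 8.14 against 6.49 and 6.53 (3.11-fold, adjusted p = 0.0124), and Lad1, Mab21l3, Arhgef3 and Arpin fell 2.89-, 2.36-, 2.29- and 2.21-fold. Any WT, Nfil3 Zeb2 DKO or ZI DKO array left out ended the calls of Gp2 and Gclc (adjusted p as high as 0.268 and 0.263). WT replicate 3 or ZI DKO replicate 1 left out ended those of H2-M2, Lad1, Mab21l3, Arhgef3 and Arpin, and further arrays did so for each (adjusted p as high as 0.25). With log2(intensity + 32) the calls of Gp2, Gclc, Lad1 and Arhgef3 were lost too.

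Interferon-stimulated genes, which type I interferon induces through STAT and IRF factors, held the most called members of the 20 lists. Of 27 measured members 16 rose (59.3%, against 0.878% of all genes) and none fell, all 27 had positive values, and the median log2 fold change was 0.97. Ifit3, an inhibitor of viral RNA translation, stood at 6.40, 6.29 and 6.25 in WT and at 8.26 and 8.97 in Zeb2 Id2 DKO, and Ifit1 at 5.44, 5.13 and 5.28 against 6.87 and 7.53. Oas3, a sensor enzyme for double-stranded RNA, stood at 6.54, 6.52 and 6.51 against 7.67 and 8.26 (2.72-fold, adjusted p = 0.00157), and the nucleotide kinase gene Cmpk2 at 6.38, 6.22 and 6.28 against 7.67 and 8.14 (3.05-fold, adjusted p = 0.00157). ZI DKO replicate 2 was the higher of both arrays in all 4, and neither overlapped WT. Stat2, the signalling subunit itself, stood at 9.85, 9.75 and 9.91 against 10.80 and 10.82 (1.96-fold, adjusted p = 0.0018), and Irf7, the amplifying factor, at 10.33, 10.10 and 10.26 against 11.36 and 11.77 (2.52-fold, adjusted p = 0.0212).

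In the other genotypes these genes stayed near WT, and comparisons with them share the Zeb2 Id2 DKO arrays. The Zeb2 KO arrays had Ifit3 levels of 6.52, 6.34 and 6.57, the Nfil3 Zeb2 DKO arrays had 6.43 and 6.29, and Zeb2 Id2 DKO lay 2.14 (adjusted p = 0.000376) and 2.26 (adjusted p = 0.000403) higher. Irf7 was the exception, with 11.00, 10.83 and 10.07 in Zeb2 KO. Not every interferon gene followed: Mx1 stood at 8.15, 8.95 and 8.61 in WT and at 8.60 and 9.04 in Zeb2 Id2 DKO (0.25, adjusted p = 0.906), Ifnb1 was dim (5.37, 5.58 and 5.46 against 5.69 and 5.51), and Ifnar1 had a difference of 0.33 (adjusted p = 0.489). The number of members that rose was 8 without ZI DKO replicate 2, 11 without WT replicate 3 and 15 without ZI DKO replicate 1. Neutrophil and erythroid genes lay higher in the same 2 arrays, as given below, and their part in this rise was not tested.

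Promoter sequences are shown for the 4 largest rises with the core of an interferon-stimulated response element (2 copies of GAAA separated by any 2 bases, searched on both strands) in the 150 bases before the start, since members of this list moved together. They come from RefSeq, GRCm38.p6, and run 5′ to 3′ on the gene's strand with the match in capitals.
Ifit3: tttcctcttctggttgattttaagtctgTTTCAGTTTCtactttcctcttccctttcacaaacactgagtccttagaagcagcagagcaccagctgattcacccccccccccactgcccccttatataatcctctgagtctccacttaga
Ifit1: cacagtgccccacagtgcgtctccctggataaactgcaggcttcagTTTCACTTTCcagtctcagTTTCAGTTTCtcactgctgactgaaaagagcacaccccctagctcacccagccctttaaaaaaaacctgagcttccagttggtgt
Lgals9: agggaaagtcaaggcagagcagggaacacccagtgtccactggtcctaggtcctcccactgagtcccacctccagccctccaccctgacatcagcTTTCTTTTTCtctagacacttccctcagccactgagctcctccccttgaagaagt
Oas3: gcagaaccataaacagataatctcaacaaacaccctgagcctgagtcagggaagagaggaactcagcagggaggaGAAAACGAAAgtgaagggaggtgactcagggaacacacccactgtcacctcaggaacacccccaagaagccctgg
The windows are chr19:34583379-34583528 (plus strand) for Ifit3, chr19:34640739-34640888 (plus) for Ifit1, chr11:78984925-78985074 (minus) for Lgals9 and chr5:120777660-120777809 (minus) for Oas3. Ifit1 has 2 matches and the others 1. Over windows that begin 250 bases before the start, the core was found in 17 of 144 rises (11.8%), 1 of 85 falls (1.18%), 8 of 19 interferon-stimulated list members (42.1%), 4 of 65 cDC1 list members (6.15%) and 2.93% of all 15614 genes with a window. Lgals9, Slfn5, Stat2, Rsad2, Bst2 and Cd300c were among the rises with it.

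The E-box CACCTG, which ZEB repressors and E proteins bind, was searched the same way because ZEB2 and the partners of ID2 act on such sites. It was found in 21.5% of rises, 17.6% of falls, 13.8% of cDC1 list members and 16.6% of all genes, and CAGCTG, preferred by E protein dimers, in 11.1%, 14.1%, 18.5% and 12.2%. In 100 bases before the start the shares for CAGCTG were 6.94%, 3.53%, 6.15% and 5.32%. Those for CACCTG were 5.56%, 7.06%, 1.54% and 6.48%, so in this shorter window rises held CACCTG no more often than all genes. One match lay 20 bases before the start of Siglech, the plasmacytoid gene with the largest rise, within chr7:55768034-55768183 (plus strand).
Siglech: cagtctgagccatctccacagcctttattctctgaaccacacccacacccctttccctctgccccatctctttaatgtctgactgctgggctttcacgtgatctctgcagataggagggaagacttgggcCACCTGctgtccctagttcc
The ETS-IRF composite (GGAA, any 2 bases, GAAA) was in 4.17% of rises, 4.71% of falls and 2.24% of all genes, and the NFIL3 site TTANNTAA in 4.86%, 4.71% and 4.77%. A match describes letters in these windows and shows no binding.

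Of 28 measured plasmacytoid dendritic cell genes 6 rose (21.4%, against 0.878% of all genes) and none fell, with a median log2 fold change of 0.25. Without adjustment, 12 had a p under 0.05, 10 higher and 2 lower. Siglech, a sialic acid receptor of these cells, stood at 5.97, 6.56 and 6.42 in WT and at 8.07 and 7.90 in Zeb2 Id2 DKO (3.19-fold, adjusted p = 0.00164), above Zeb2 KO (5.93, 5.99 and 6.31) and Nfil3 Zeb2 DKO (6.87 and 6.53) as well. The endosomal DNA sensor Tlr9 stood at 9.91, 10.27 and 9.78 against 10.55 and 10.64 (0.61, adjusted p = 0.0461), and Cd300c at 8.57, 9.04 and 9.05 against 9.97 and 9.60 (0.90, adjusted p = 0.0383). Of 17 Toll-like receptor and adaptor genes 8 had an unadjusted p under 0.05, 5 higher and 3 lower, against 2028 of all 19938 genes. Tlr9 was also the single called rise among the 17 (5.88%, against 0.878% of all genes), of which none fell. That call was lost with a second quantile normalization and with the replicate number as a block. Irf7 and Bst2 (0.98, adjusted p = 0.034), both also on the interferon list, and Upb1 (0.50, adjusted p = 0.0311) completed the 6. Cox6a2 (-0.10), Ccr9 (0.21), Pacsin1 (0.30) and Dntt (0.06) did not pass, and Cox6a2 and Dntt, markers of plasmacytoid cells, stayed dim (6.72 and 6.56, and 4.08 and 4.11, in Zeb2 Id2 DKO).

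The call of Siglech held with any array left out (adjusted p as high as 0.0297). Those of Irf7, Bst2, Upb1, Cd300c and Tlr9 ended without WT replicate 3 or ZI DKO replicate 2, and each without further arrays, among them both Nfil3 Zeb2 DKO arrays for Bst2, Upb1, Cd300c and Tlr9 (adjusted p as high as 0.246, 0.295, 0.332, 0.399 and 0.365). Without WT replicate 1 the list held 2 rises and 2 falls, and with log2(intensity + 32) it held 2 rises, as Irf7, Bst2, Cd300c and Tlr9 were lost. In bulk samples, few cells of another type and a low level in every cell cannot be told apart.

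Of 25 cDC2 genes 1 fell (4%, against 0.557% of all genes) and none rose, with a median of -0.13. Below an unadjusted p of 0.05 were 13, 3 higher and 10 lower, against 2028 of all 19938 genes. Rtn1, a reticulon, stood at 9.48, 9.78 and 9.65 in WT, 8.69, 8.64 and 8.23 in Zeb2 KO and 8.59 and 8.72 in ZI DKO (log2 fold change from WT -0.98, adjusted p = 0.00695, lost without either ZI DKO array, adjusted p up to 0.0928). Sirpa, the receptor that separates cDC2s from cDC1s, stood at 7.09, 7.44 and 7.54 against 7.25 and 7.48, inside the WT range. Itgam, also a myeloid integrin chain, stood at 6.12, 6.12 and 6.15 against 6.55 and 7.64 (0.97, adjusted p = 0.146), higher in the replicate with the higher neutrophil genes.

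Neutrophil genes had the highest median of the 20 lists. Of 17 measured members 8 rose (47.1%, against 0.878% of all genes) and none fell, all 17 had positive values, and the median log2 fold change was 1.87. Ngp, a granule protein, stood at 8.57, 8.37 and 8.71 in WT and at 10.82 and 12.18 in Zeb2 Id2 DKO, and the primary granule protease genes Elane (7.49, 6.85 and 7.30 against 8.62 and 9.55, adjusted p = 0.0308) and Prtn3 (6.36, 5.98 and 6.53 against 7.65 and 8.46, adjusted p = 0.00726) rose with it. Replicate 2 was the higher Zeb2 Id2 DKO array in all 3. Relative to the WT mean, the list lay 1.07 and 2.12 higher in Zeb2 Id2 DKO, 2.11, 1.16 and 1.49 higher in Zeb2 KO and 0.39 and 0.90 higher in Nfil3 Zeb2 DKO, while WT arrays spanned -0.10 to 0.09. Ngp in Zeb2 KO reached 12.18, 11.25 and 11.24, no lower than in Zeb2 Id2 DKO (difference -0.06, adjusted p = 0.99). The 8 calls fell to 1 without ZI DKO replicate 2, to 4 without WT replicate 1, to 3 without WT replicate 2 or 3, and with log2(intensity + 32) to 3. The Elane call, absent with log2(intensity + 32), ended without WT replicate 2 or 3 or either ZI DKO array (adjusted p as high as 0.329) and Prtn3 without ZI DKO replicate 2 (0.0904).

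Of 10 erythroid genes 2 rose (20%, against 0.878% of all genes): Car2 (6.88, 6.84 and 6.37 in WT, 7.74 and 7.77 in Zeb2 Id2 DKO) and Hemgn (6.76, 6.54 and 6.27 against 7.45 and 7.40), both lost without either ZI DKO array (adjusted p as high as 0.145), and Hemgn also without WT replicate 2. All 10 had positive values, with a median of 0.77. Of 15 T cell genes 12 had an unadjusted p under 0.05, 2 higher and 10 lower, against 2028 of all 19938 genes. At the adjusted threshold 5 were called (33.3%, against 1.43% of all genes). Cd3d, Cd3g, Lat and Icos fell, and the 1 that rose was Cd6, a receptor for ALCAM (6.68, 7.06 and 6.98 against 8.63 and 8.83, adjusted p = 0.000372). Cd3d stood at 6.27, 6.45 and 6.67 against 5.46 and 5.73, so that Cd6 and the CD3 chain moved in opposite directions. Cd6 was intermediate in Zeb2 KO (7.81, 7.71 and 7.29) and Nfil3 Zeb2 DKO (7.79 and 7.78). The T cell calls other than Icos and Cd6 were lost without ZI DKO replicate 1, among others (adjusted p as high as 0.405), and Lat also with log2(intensity + 32).

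For B cell genes limma called 0 of 16, where 1.43% of all genes were called, so the count shows little. An unadjusted p under 0.05 was found for 1 of the 16, against 2028 of all 19938 genes. The B cell list stood 0.81 above the WT mean in WT replicate 1 and 0.43 and 0.38 below it in WT replicates 2 and 3. In Zeb2 Id2 DKO it stood 0.33 and 0.34 below the WT mean, inside the WT range. Other lists were also counted by an unadjusted p under 0.05. Such a p was found for 9 of 16 monocyte genes (5 higher, 4 lower), 4 of 17 red pulp macrophage genes and 5 of 16 NK cell genes. Of 16 monocyte genes 2 were called (12.5%, against 1.43% of all genes). Ms4a6c rose (9.27, 9.31 and 9.46 against 10.02 and 10.02, adjusted p = 0.045) and Cd300e fell (7.64, 7.39 and 7.50 against 6.82 and 6.81, adjusted p = 0.015). Of 17 red pulp macrophage genes 2 fell (11.8%, against 0.557% of all genes). These were Hpgd, which degrades prostaglandins, and the adhesion gene Vcam1 (log2 fold changes -1.61 and -1.06), while C1qa stayed at its WT level (5.94, 6.14 and 6.22 against 6.13 and 6.05). Of 16 NK cell genes 1 fell (6.25%, against 0.557% of all genes), Il2rb (-0.96, adjusted p = 0.0328). These 5 calls ended without WT replicate 3 or either ZI DKO array, and Ms4a6c, Vcam1 and Il2rb also without either Nfil3 Zeb2 DKO array (adjusted p as high as 0.345). With log2(intensity + 32) Ms4a6c, Vcam1 and Il2rb did not pass. Of 24 cell cycle genes limma called 0, where 1.43% of all genes were called, so this count shows little too. An unadjusted p under 0.05 was found for 1, although 7 fell and 1 rose without WT replicate 1 and Zeb2 KO replicate 3 together. Mki67, a marker of proliferation, stood at 9.97, 10.39 and 10.19 against 10.17 and 10.13.

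**Figure D5:**
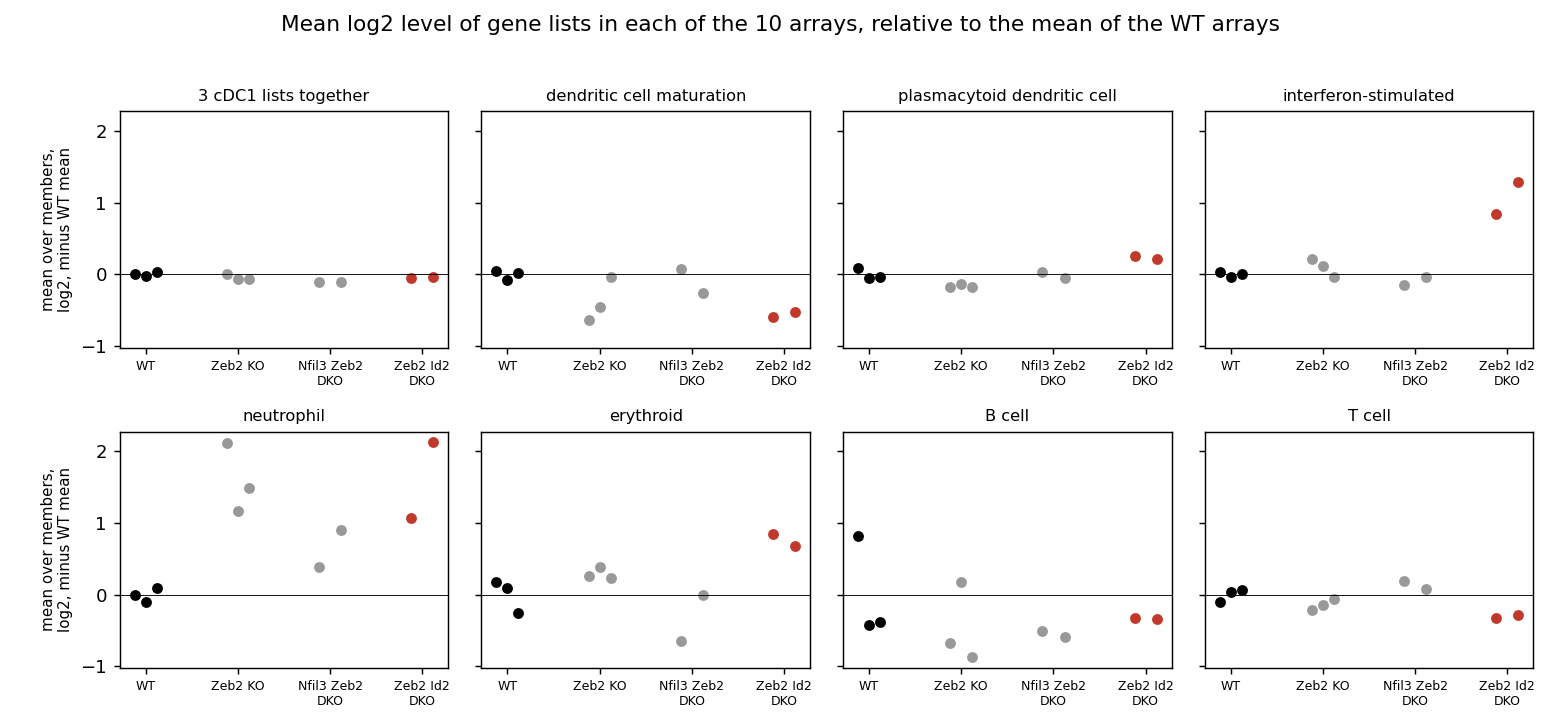
Mean log2 level over the members of 8 gene lists in each of the 10 arrays, relative to the mean of the WT arrays, by genotype (WT black, Zeb2 Id2 DKO red, others grey). The cDC1 lists lie near 0 in every array, the interferon-stimulated list is high in the Zeb2 Id2 DKO arrays (0.84 and 1.28), the neutrophil list is high in Zeb2 KO as well, and WT replicate 1 is high for B cell genes (0.81).

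Genes beside the targets were also examined, since a modified locus can carry its neighbours from another strain. Over all genes 1.43% were called. Among the 25 measured genes on either side of Id2 (chromosome 12), 2 of 50 were called, Rsad2 and Cmpk2. They lie 2 and 3 genes away and are both on the interferon-stimulated list. Rsad2, the antiviral enzyme viperin, stood at 8.13, 8.37 and 8.02 in WT and at 9.03 and 9.76 in Zeb2 Id2 DKO (2.33-fold, adjusted p = 0.0157, lost without WT replicate 3 or ZI DKO replicate 2, adjusted p up to 0.155). Around Zeb2 (chromosome 2) 1 of 50 was called, the kinase gene Nek6, 17 genes away (9.72, 9.54 and 9.67 against 10.21 and 10.35, adjusted p = 0.00695, lost without ZI DKO replicate 2, adjusted p = 0.109). The median absolute log2 difference was 0.09 beside Id2 and 0.11 beside Zeb2, against 0.08 over all genes.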

How the data were processed

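The authors' deposited values are linear intensity values of Affymetrix arrays, processed with RMA in Affymetrix Expression Console, per the submitters' processing notes. Versions and annotation are not given in the sources used here. Intensities ran from 5.05 to 16019, and their log2 was analysed. Of 28853 probe sets 21789 named 1 gene, 1621 several and 5443 none. For the 999 genes with several sets, the brightest on average was kept. One mean for each genotype was fitted across the 10 arrays with limma 3.58.1 in R 4.3.3 (6 residual degrees of freedom, prior 4.47), and the script was tested on simulated data. The number of arrays limits precision: the median 95% interval reached 0.24 to either side.

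Named genes were the targets, members of the 3 cDC1 lists, the 25 largest rises and falls among called genes without overlapping arrays (predicted, small RNA, olfactory, receptor segment and sex-linked genes left out), and called members of the other lists or, with none, the 2 of smallest p. Other list members are given as values, chosen after their values were seen. Members, lists and motifs were chosen with earlier results of these data known. Promoters are RefSeq windows of 250 bases, the first listed per gene. Alternatives are in the closing section.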

Additional observations from a re-analysis of the deposited data

How the results depend on the processing

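The 286 calls became 554 with the 5 arrays of the comparison alone, 1076 with array weights (lowest 0.19, for Zeb2 KO replicate 3), 183 with the replicate block and 1104 without WT replicate 1 and Zeb2 KO replicate 3 together, an alternative chosen after seeing the data. With single arrays left out they ranged from 67 (without Zeb2 Id2 DKO replicate 2) to 760 (without Zeb2 KO replicate 3). The 7 calls in the cDC1 lists became 15, 23 and 23 with the 5 arrays, with array weights and without both arrays, and ranged from 2 to 19 with single arrays left out. The share of rises with the interferon element was 11.8% in 250 bases and 5.56% in 100 bases, where all genes gave 0.897%. The counts within 2-fold of WT and in the 200, 500 and 1000 highest genes moved little, no named gene changed sign while called, and 33 of 84 named called genes held with every single array left out. Whether replicate numbers pair the arrays is not given: deviations of same-numbered arrays correlated between -0.312 and 0.162 over all genotypes and at 0.162 and 0.095 for the 2 pairs of WT and Zeb2 Id2 DKO, too few to settle it. The mean of probe sets, a second quantile normalization, a level filter, log2(intensity + 32) and a trend in the prior left the count of calls between 213 and 304, but log2(intensity + 32) ended 22 of the 84 named calls.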
